A study of Mus musculus with 16 samples.

Results

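Cathepsins are the proteases of the lysosome, and cystatins are proteins that inhibit the cysteine cathepsins. The 10 genes described here are 9 cathepsins (Ctsa, Ctsb, Ctsc, Ctsd, Ctsh, Ctsk, Ctsl, Ctss and Ctsz) and Cst3, which encodes cystatin C. They were chosen by name, as lysosomal proteases and an inhibitor of them, out of 21965 genes in the deposited table. These genes and the other gene lists were chosen with earlier results of these data known. Their shares of called genes are therefore not those of unselected sets. All 10 had enough counts to be among the 11319 genes tested. RNA was sequenced from RAW264.7 cells, a macrophage-like line grown from a mouse tumour induced by a leukaemia virus. The 16 libraries form 4 groups of 4: control cells given the vehicle, cells given oxLDL (oxidised low-density lipoprotein, at 50 µg/ml), cells given tirzepatide at 100 nmol/ml as the labels write it, and cells given both. Tirzepatide, a synthetic peptide used against diabetes and obesity, is an agonist at both the GIP and the GLP-1 receptor. All groups share the 1 cell line, with no genetic change stated. The labels state no treatment time and do not say whether replicates were separate cultures, so the p-values reflect the spread among these libraries alone, which may be technical. The table identifies the genes as Ctsb ENSMUSG00000021939, Ctsk ENSMUSG00000028111, Ctsl ENSMUSG00000021477, Ctss ENSMUSG00000038642, Ctsd ENSMUSG00000007891, Ctsa ENSMUSG00000017760, Ctsc ENSMUSG00000030560, Ctsh ENSMUSG00000032359, Ctsz ENSMUSG00000016256 and Cst3 ENSMUSG00000027447.

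Cathepsins are made as inactive precursors, carried to the lysosome largely by mannose 6-phosphate receptors, and activated there at acid pH. Macrophages use them to degrade what they take up, to trim peptides for MHC class II, and, when secreted, to cut extracellular matrix. Most are cysteine proteases of the papain fold, but Ctsd encodes an aspartic protease and Ctsa a serine carboxypeptidase. Cystatin C is secreted and also acts inside the endocytic pathway, while the cytosolic cystatin B, encoded by Cstb, guards against cathepsins that leak from lysosomes. In atheroma, macrophages that fill with modified lipoprotein are a known source of cathepsins.

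By TPM, a relative transcript level that takes account of gene length and library depth, the genes ranged from 1.07 to 1961 in control cells. Ctsd was the highest, at 1961 ± 83.0 TPM (SD, n = 4, as for all means below), and ranked 58 of 21965 genes by control mean. Next came Ctsa, which protects lysosomal sialidase and galactosidase, at 655 ± 57.3 TPM, and the endopeptidase gene Ctsl at 614 ± 25.6 TPM. Ctsz, a carboxypeptidase gene, had 513 ± 29.5 TPM, and Ctsb, whose enzyme cuts both within chains and at their ends, 476 ± 15.1 TPM. Cst3 had 259 ± 17.1 TPM and Ctsh, an aminopeptidase gene, 252 ± 14.7 TPM. Ctss, the endopeptidase gene best known for processing the class II invariant chain, had 74.4 ± 4.81 TPM. Neighbours in this order whose ranges over the control libraries overlapped were Ctsa with Ctsl, Ctsz with Ctsb, and Cst3 with Ctsh. The other steps from Ctsd down to Ctss had no overlap.

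Ctsc and Ctsk stood far below the rest. Ctsc, whose product activates granule serine proteases, had 1.26 ± 0.445 TPM, from 17 to 28 counts a control library. Ctsk, the collagen-degrading cathepsin of osteoclasts, had 1.07 ± 0.274 TPM, from 10 to 18 counts a library. At this depth their ranges overlapped with each other in every group. Of the granule proteases that cathepsin C activates, the 5 genes looked for were also near 0. They had a summed level of at most 0.663 TPM in the control libraries, and none had enough counts to be tested. Other substrates were not looked for. Ctsd alone made up 39.1% to 41.8% of the summed TPM of the 10 genes across the 16 libraries.

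**Figure D1:**
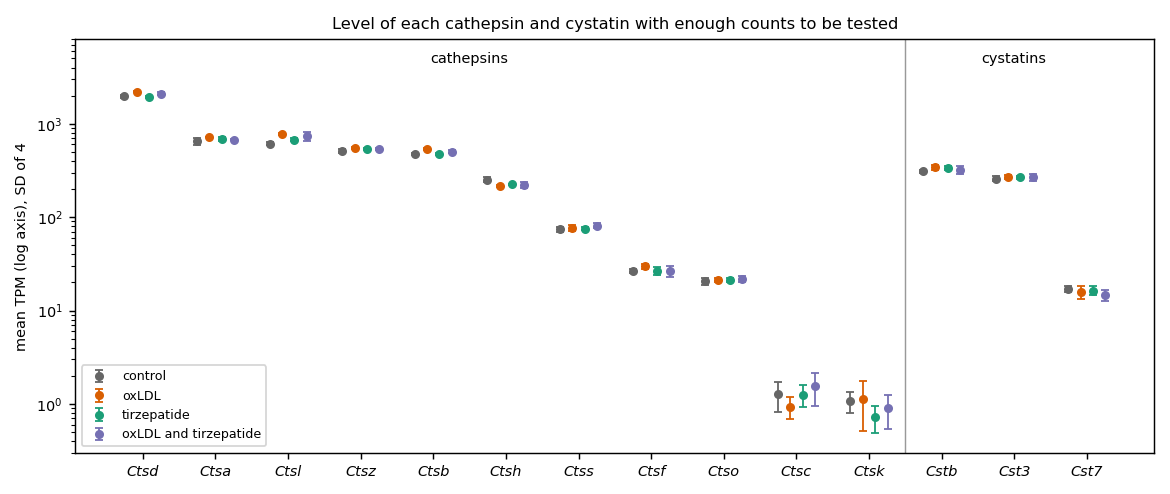
Mean TPM (log axis) with its SD over 4 libraries, for each cathepsin and cystatin gene with enough counts to be tested; colours mark the 4 groups. Ctsd stands highest near 2000 TPM, 6 further cathepsins lie between 74.4 and 655 TPM in control, and Ctsc and Ctsk sit near 1 TPM in every group.

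Among the 14 other cathepsin genes looked for, only Ctsf at 26.5 ± 1.26 TPM and Ctso at 20.7 ± 1.74 TPM in control passed the filter on low counts, and 10 of the 14 were listed at 0 in all control libraries. Of 21 other cystatin family genes, Cstb had 309 ± 12.5 TPM, above Cst3 on the same scale, and Cst7, which encodes the endolysosomal cystatin F, had 17.1 ± 1.26 TPM. No other cystatin gene passed the filter. In the pathway annotation of the deposited table, 9 of the 10 genes are listed under lysosome, the exception being Cst3, and 3 of them, Ctsb, Ctsl and Ctss, under antigen processing.

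Many lysosomal genes carry near their start the motif CACGTG, an E-box bound by TFEB and related factors, and the longer core TCACGTG is part of the element known as CLEAR. RefSeq windows on GRCm38.p6, from 250 bases before to 50 after an annotated start, were at hand for 8 of the 10 genes, with 9 windows in all, and Ctsb and Ctsh had none. CACGTG, which reads the same on both strands, was found in 3 of these genes, and it is in 7.15% of all 32851 windows. TCACGTG, on either strand, is in 3.77% of all windows, and at least 2 copies of CACGTG are in 0.594%. Of 125 windows of lysosome pathway genes, 25 held CACGTG and 22 held TCACGTG, or 17.6%. Both Ctsd copies and both Ctsa copies extend to TCACGTG, and the Ctsl copy does not. Shown here are the stretches of all 3 genes with CACGTG in a window, Ctsd, Ctsa and Ctsl, with CACGTG in capitals. These 3 are among the genes that rose with oxLDL below. Ctsb, which also rose, and Ctsh, which fell, had no window, and a link of motif and change was not tested.
Ctsd, chr7:142388048-142388077, minus strand, motif 245 bases before the start: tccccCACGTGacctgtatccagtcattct
Ctsd, chr7:142387908-142387937, minus strand, motif 98 bases before the start: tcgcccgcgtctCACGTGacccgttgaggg
Ctsa, chr2:164833757-164833786, plus strand, motifs 12 bases before and 5 after the start: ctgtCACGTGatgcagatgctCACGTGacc
Ctsl, chr13:64370739-64370768, minus strand, motif 236 bases before the start: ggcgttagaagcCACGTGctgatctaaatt
In the GENCODE annotation of the same build, the first Ctsd motif lies upstream of all 3 transcripts and the other in the 5′ untranslated exon part of 1 of them. The Ctsa window belongs to the downstream of 2 annotated starts, inside the gene, where the motifs fall in exons of 2 and 3 of 16 transcripts and in no coding part. The Ctsl motif lies within 2 of 7 transcripts and touches an untranslated exon of 1. The windows of Cst3, Ctsc, Ctsk, Ctss and Ctsz and the upstream Ctsa window held no CACGTG, which says only that these letters are not in those 300 bases.

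Each library held between 15877278 and 17336019 counts, with 12954 to 13276 genes detected. All 8 macrophage markers were present, with a summed level of 16991 to 23449 TPM. Of 8 neutrophil markers 1 reached a mean of 1 TPM, and of 6 fibroblast markers none did. Control libraries 1 and 2 stood apart in carrying pancreatic acinar transcripts: the 22 acinar markers in the table summed to 287 and 157 TPM there, against 23.6 to 41.8 TPM in controls 3 and 4 and 6.97 to 60.0 TPM in the 12 treated libraries, and 18 of the 22 had a control mean of at least 1 TPM. Transcripts of mitochondrial genes took 20.5% of TPM in control 1 and 14.7% to 19.8% elsewhere. Since the acinar transcripts stood out in 2 of the 4 controls, some results against control are also given without those 2 libraries. For the genes described here these are the calls and some of the log2 changes, not every change that moved. Results against control for the other gene lists and their single genes are given with all libraries only. Whether those hold without controls 1 and 2 is not shown. The part of these 2 libraries in the results was not otherwise tested. In bulk RNA, fewer cells of a type and less RNA per cell cannot be told apart.

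With oxLDL alone, 4 of the 10 genes rose and 1 fell, a share to be read beside the 4.54% of all tested genes that were called (2.49% higher and 2.05% lower). Since the 10 genes were chosen with earlier results of these data known, the gap between these shares is not that of an unselected set. A gene was called at an adjusted p under 0.05 in edgeR's quasi-likelihood test, with Benjamini-Hochberg adjustment over all genes tested. The genes that rose were Ctsl, Ctsb, Ctsd and Ctsa, by 1.21-, 1.13-, 1.12- and 1.1-fold, and the gene that fell was Ctsh, to 0.863 of control. For each of these 5 the TPM ranges of oxLDL and control libraries did not overlap, which held for 8.3% of all tested genes (4.86% higher and 3.44% lower). Without controls 1 and 2, edgeR called 3 of the 10 genes: Ctsl and Ctsb higher and Ctsh lower. The median log2 change of the 10 genes was 0.08, beside -0.0021 over all genes tested. These are small changes in genes of high level: together the 10 genes took 0.481% ± 0.0208 of TPM in control and 0.537% ± 0.0102 with oxLDL, and the ranges did not overlap.

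Among the endopeptidases, Ctsl showed the largest change. Its control libraries 1 to 4 had 621, 586, 603 and 646 TPM, and the oxLDL libraries 741, 784, 790.5 and 773 TPM. Every oxLDL library was above every control library, by a log2 change of 0.28 (SE 0.06, edgeR adjusted p = 0.0037). Leaving out controls 1 and 2 gave a Ctsl change of 0.33 (edgeR adjusted p = 0.0041). Cathepsin L degrades endocytosed protein and, when secreted, elastin and collagen.

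Ctsb went from 458, 469, 485 and 491 TPM in control to 531, 534, 563 and 540.0 TPM with oxLDL. The groups were well apart, and the log2 change was 0.18 (SE 0.04, edgeR adjusted p = 0.0023). It was 0.18 again without controls 1 and 2 (edgeR adjusted p = 0.024). Cathepsin B is also the cathepsin most often linked to cell death after lysosomal leakage.

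Ctss and Ctsk did not pass the test. Ctss had 76.4, 72.1, 69.1 and 80.0 TPM in control and 74.9, 69.7, 82.8 and 78.0 TPM with oxLDL, with full overlap. Its log2 change was 0.03 with a 95% interval from -0.09 to 0.15. The Ctsl interval, 0.16 to 0.40, lay above that of Ctss, while the Ctsb interval, 0.11 to 0.26, overlapped with it. The genes were not tested against each other. Ctsk had 54 counts over the 4 control libraries (95% Poisson interval 40.6 to 70.5, counting error only) and 57 with oxLDL (43.2 to 73.9). Its interval of -0.72 to 0.87 on the log2 scale leaves any change of the size seen in Ctsl undetectable at this depth.

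Ctsd, the aspartic protease gene, had 1867, 1923, 1995 and 2057 TPM in control and 2164, 2186, 2274 and 2228 TPM with oxLDL. The lowest oxLDL library was above the highest control library. The log2 change was 0.17 (SE 0.04, edgeR adjusted p = 0.0048). Without controls 1 and 2 it was 0.15, and the call was lost (edgeR adjusted p = 0.057). Ctsd is 1 of the genes whose E-box stretches are printed above, and the part of those motifs in its change was not tested.

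Of the exopeptidases, Ctsa rose from 583, 634, 701 and 701 TPM in control to 725, 724, 726 and 728 TPM with oxLDL. The oxLDL libraries lay very close together, just above controls 3 and 4, while controls 1 and 2 were the lowest. The log2 change was 0.14 (SE 0.04, edgeR adjusted p = 0.031), close to the threshold. The call did not hold in 9 of 24 alternatives, among them leaving out control 1, 2 or 4 or oxLDL 1, 2 or 4 (edgeR adjusted p between 0.063 and 0.12), and without controls 1 and 2 together the change was 0.10 (edgeR adjusted p = 0.26).

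Ctsz had 478, 499, 541 and 532 TPM in control and 533, 538, 558 and 565 TPM with oxLDL. The groups overlapped, and the log2 change of 0.09 (SE 0.04) did not pass (edgeR adjusted p = 0.15), though DESeq2 called it at an adjusted p of 0.033. Ctsc had 92 counts in control (74.2 to 112.8) and 82 with oxLDL (65.2 to 101.8), a log2 change of -0.17 with an interval of -0.74 to 0.41.

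Ctsh was the 1 gene of the 10 called lower. It had 235, 266, 262 and 246 TPM in control and 217, 213, 216 and 224 TPM with oxLDL. All oxLDL libraries were below all control libraries, with a log2 change of -0.21 (SE 0.05, edgeR adjusted p = 0.0057). Without controls 1 and 2 the change was -0.21 (edgeR adjusted p = 0.031). Ctsh was also the 1 gene called lower among the 120 tested genes of the lysosome pathway in the deposited table. The aminopeptidase it encodes is known for maturing surfactant protein in lung.

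The inhibitor gene Cst3 had 239.7, 259, 281 and 255 TPM in control and 258, 285, 270.4 and 263 TPM with oxLDL. The groups overlapped widely and the log2 change was 0.05 (SE 0.05, edgeR adjusted p = 0.67), with an interval of -0.06 to 0.16. A change of Cst3 as large as that of Ctsl lay outside this interval, and one as large as that of Ctsa did not.

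**Figure D2:**
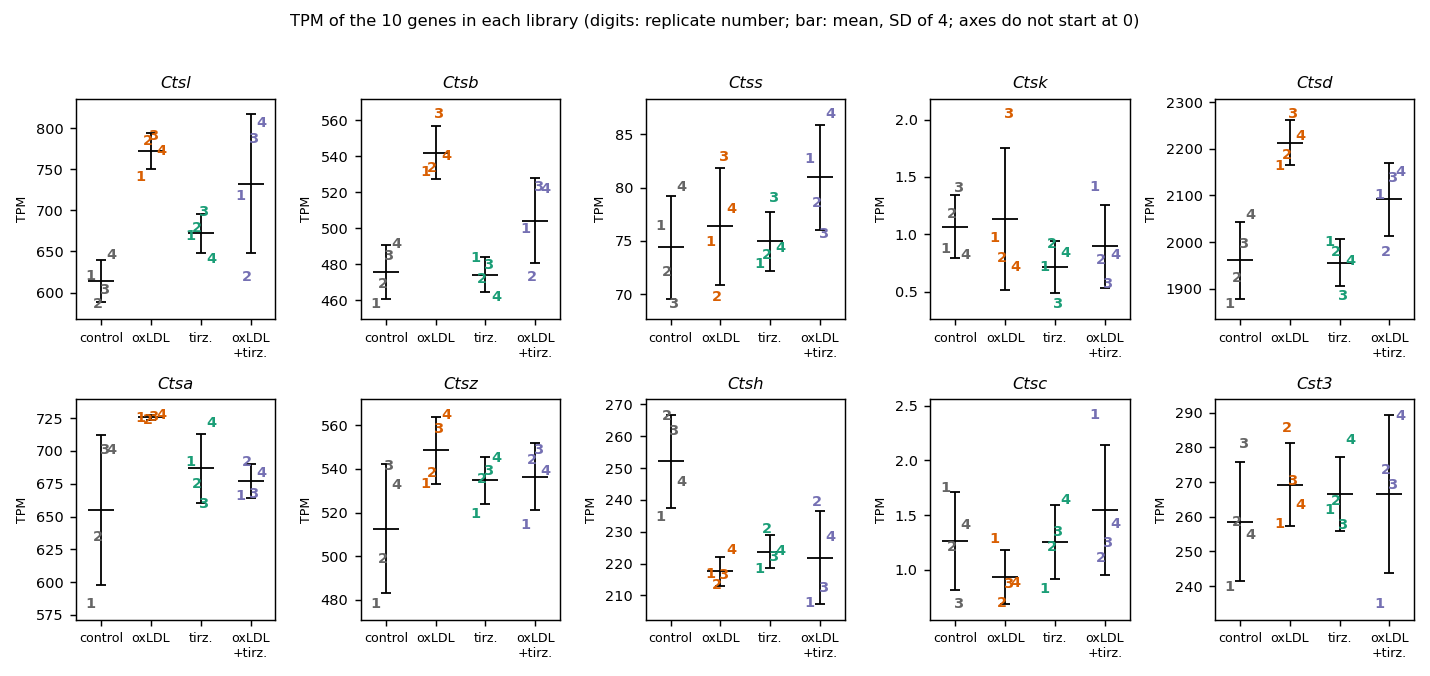
TPM of each of the 10 genes (one panel each, TPM on the y axis, axes not starting at 0) in each library, drawn as its replicate number, by group, with a horizontal bar for the mean and whiskers for the SD of 4. The oxLDL libraries lie above all controls for Ctsl, Ctsb, Ctsd and Ctsa and below them for Ctsh, and library 2 of the combination sits at 619 TPM for Ctsl, far under the other combination libraries.

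Ratios of TPM within a library put the opposite moves of Ctsl and Ctsh together. Ctsl to Ctsh was 2.44 ± 0.227 in control, 3.55 ± 0.136 with oxLDL, 3.00 ± 0.126 with tirzepatide and 3.32 ± 0.501 with both. The control range, 2.2 to 2.65, did not overlap with the ranges of oxLDL (3.42 to 3.68) or tirzepatide (2.87 to 3.15). Ctsl to Cst3 was 2.15 to 2.59 in control and 2.75 to 2.93 with oxLDL, again with no overlap. The sum of the 9 cathepsins to Cst3 was 17.6 ± 0.916 in control and 19.0 ± 0.848 with oxLDL, and these ranges overlapped. The order of Ctsl and Ctsa also differed: Ctsl stood below Ctsa in 3 of 4 control libraries and above it in all 4 oxLDL libraries, where their ranges did not overlap.

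Tirzepatide without oxLDL was compared with the same 4 control libraries, so the comparisons against control are not independent of each other. Here 1 of the 10 genes was called, lower, against 4.08% of all tested genes (1.74% lower), and the median log2 change of the 10 was -0.02. That gene was Ctsh, with 218, 231, 222 and 224 TPM, each below the lowest control library at 235 TPM. Groups that do not overlap were seen in this comparison for 9.95% of tested genes (2.68% lower). The Ctsh change was -0.18 (SE 0.05, edgeR adjusted p = 0.024), and it rests on few libraries: without control 2, control 3 or tirzepatide 1, 2 or 3 the edgeR adjusted p was 0.052 to 0.11, and without controls 1 and 2 together 0.091, with changes of -0.16 to -0.19.

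The genes that rose with oxLDL stayed near control. Ctsb had 483, 472, 479.5 and 462 TPM with tirzepatide, a log2 change of -0.03 with an interval of -0.11 to 0.04. Ctsd had 1999.5, 1979, 1884 and 1960.5 TPM, a change of -0.03 with an interval of -0.10 to 0.04. For both genes this interval ends below the lower end of their oxLDL interval, 0.11 for Ctsb and 0.10 for Ctsd, but the single agents were not tested against each other. Ctsl had 669, 678, 699 and 641 TPM, and 3 of these libraries were above all controls in TPM. On TMM-scaled CPM only tirzepatide 2 was, at 562 against 561 in control 1. The Ctsl change of 0.09 (interval -0.02 to 0.21, edgeR adjusted p = 0.40) did not pass.

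Ctsa had 692, 675, 659.9 and 721 TPM with tirzepatide, overlapping with the controls at a log2 change of 0.03. Ctsz had 519 to 545 TPM, Ctss 72.9 to 79.0 TPM and Cst3 258 to 282 TPM, and their log2 changes were 0.03, -0.02 and 0.01, all with intervals across 0. Ctsk had 36 counts (25.2 to 49.8) and a change of -0.60 with an interval of -1.45 to 0.25, so that neither a fall of this size nor its absence could be seen. Ctsc had 93 counts, against 92 in control.

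**Figure D3:**
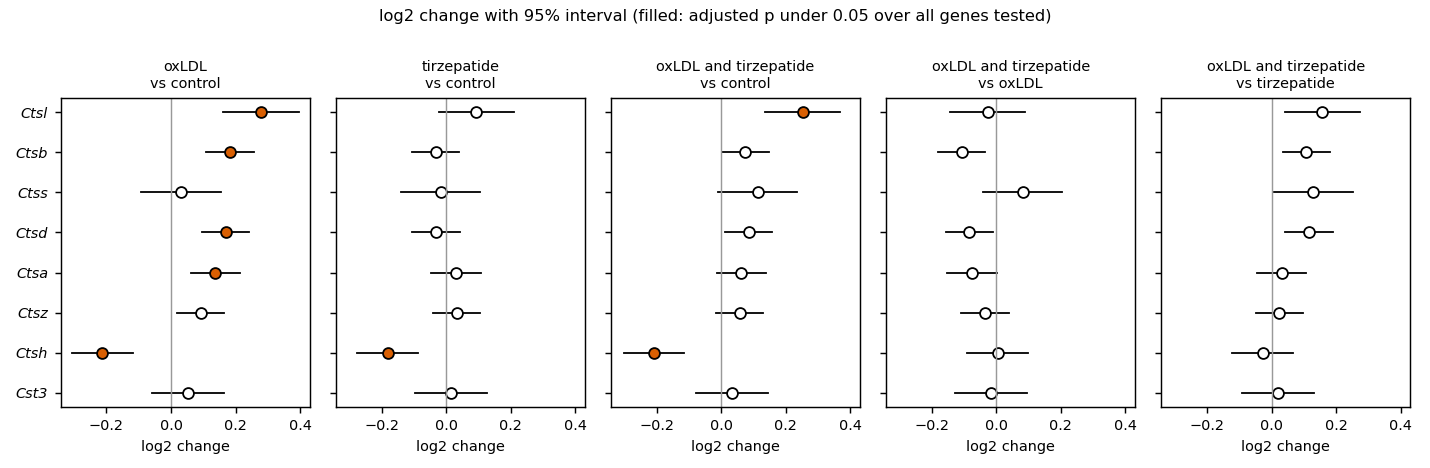
Log2 change (x axis) with its 95% interval for the 8 genes above 50 TPM in 5 comparisons, one panel each; filled points were called at an adjusted p under 0.05 over all genes tested in edgeR. OxLDL against control has 5 filled points, tirzepatide against control has Ctsh alone, the combination against control has Ctsl and Ctsh, and the comparisons of the combination with each single treatment have none.

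With oxLDL and tirzepatide together, 2 of the 10 genes were called against control, 1 higher and 1 lower, where 8.94% of all genes were (4.69% higher and 4.25% lower). The TPM ranges of the groups overlapped for all 10, while 8.98% of tested genes had groups apart. Ctsl had 718, 619, 787 and 806 TPM, so that library 2 fell among the controls and the other 3 lay above them. The log2 change of Ctsl was 0.25 (SE 0.06, edgeR adjusted p = 0.0066). Ctsh had 207, 239, 212 and 228 TPM, with library 2 again inside the control TPM range, and a change of -0.21 (SE 0.05, edgeR adjusted p = 0.0056). On TMM-scaled CPM, combination library 2 had 186 for Ctsh, below the lowest control at 190, so these groups did not overlap. Leaving out combination library 2 gave 0.32 for Ctsl and -0.25 for Ctsh. The count was also 2, 1 higher and 1 lower, without controls 1 and 2.

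Ctsb and Ctsd lay between control and oxLDL. Ctsb had 499.8, 473, 523 and 522 TPM with both agents, and its change against control of 0.07 did not pass (edgeR adjusted p = 0.20). Ctsd had 2102, 1978, 2138 and 2149.9 TPM, a change of 0.08 (edgeR adjusted p = 0.14), which DESeq2 called at an adjusted p of 0.029 and limma after quantile normalization at 0.023. Ctsa had 665, 692, 667 and 683 TPM, a change of 0.06 (edgeR adjusted p = 0.33). Against control, Ctss changed by 0.11 (interval -0.01 to 0.24), Ctsz by 0.06 (-0.02 to 0.13) and Cst3 by 0.03 (-0.08 to 0.15), none past the threshold. Ctsk had 44 counts (32.0 to 59.1) and Ctsc 113, with intervals of -1.09 to 0.56 and -0.24 to 0.87.

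Tirzepatide added to oxLDL was the comparison closest to the question in the series title, the effect of tirzepatide under oxLDL. None of the 10 genes was called by edgeR, 2 had an unadjusted p under 0.05, and only 0.0353% of all genes tested were called, 4 genes. DESeq2 called 1 of the 10, Ctsb, at an adjusted p of 0.040. Ctsb was lower in every combination library (473 to 523 TPM) than in any oxLDL library (531 to 563 TPM), by -0.11 with an interval of -0.18 to -0.04 (edgeR adjusted p = 0.36). Ctsd, at 1978 to 2149.9 against 2164 to 2274 TPM, and Ctsa, at 665 to 692 against 724 to 728 TPM, also did not overlap. Their changes were -0.08 each, with intervals of -0.16 to -0.01 and -0.15 to 0.0018 (edgeR adjusted p = 0.42 and 0.50). Groups that do not overlap were seen for 4.75% of all genes tested, 1.67% in this direction, and for these 3 of 10.

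For Ctsl the TPM ranges of combination and oxLDL libraries overlapped. Its change on adding tirzepatide to oxLDL was -0.03 (interval -0.14 to 0.09), and 0.04 without combination library 2, so the sign depends on that library. This interval also holds the changes of Ctsb, Ctsd and Ctsa, and the genes were not tested against each other here. Ctsh was 0.0047 (interval -0.09 to 0.10), Cst3 -0.02 (interval -0.13 to 0.09) and Ctsz -0.04 (interval -0.11 to 0.04). Ctss was 0.08, from 69.7 to 82.8 TPM with oxLDL and 75.7 to 86.9 TPM with both, and did not pass (edgeR adjusted p = 0.66). Ctsc, with 82 and 113 counts (93.1 to 135.9 for the latter), had a change of 0.48 and an interval of -0.08 to 1.05.

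When oxLDL was added to tirzepatide, edgeR called none of the 10 genes, beside 1.54% of all genes, and 4 of the 10 had an unadjusted p under 0.05. With the replicate number as a block edgeR called Ctsd (adjusted p = 0.048). The TPM ranges of the groups overlapped for all 10, while 6.57% of all genes had groups apart. Combination library 2 also moves this count. On log2 CPM scaled by edgeR's TMM factors, a level relative to library size, it lay below the mean of the other 3 combination libraries by -0.29 for Ctsl, -0.11 for Ctsb and -0.09 for Ctsd, and above it by 0.16 for Ctsh. On this scale it was, for Ctsl and Ctsb, within the range of the tirzepatide libraries. For Ctsd it was above all of them, at 11.06 against at most 11.04, so the Ctsd groups did not overlap on this scale. Without combination library 2, edgeR called 3 genes higher: Ctsl by 0.23 (adjusted p = 0.0044), Ctsd by 0.14 (0.018) and Ctsb by 0.13 (0.021). With all libraries these changes were 0.16, 0.12 and 0.11, and DESeq2 called Ctsb and Ctsd.

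**Figure D4:**
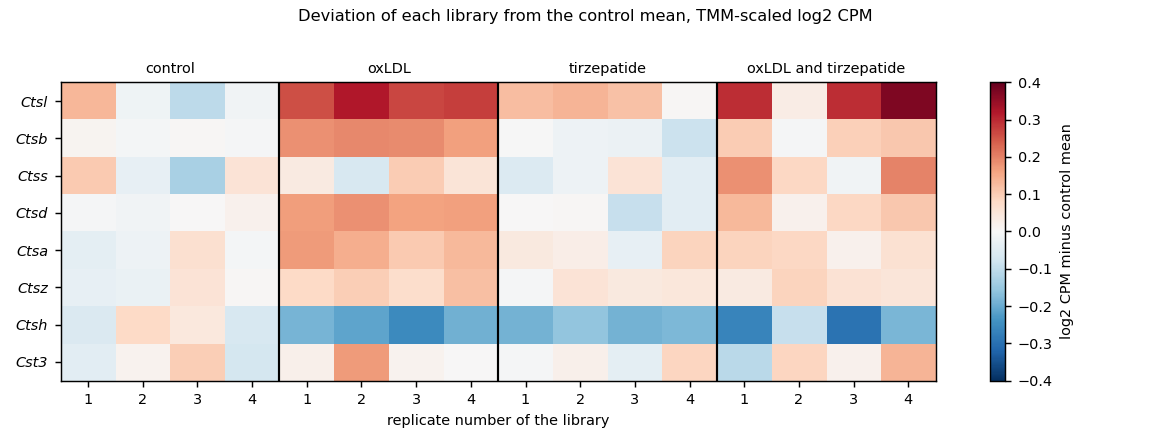
Deviation of each library (columns, by group and replicate number) from the control mean for the 8 genes above 50 TPM (rows), in TMM-scaled log2 CPM; red is above and blue below control. The oxLDL columns are red for Ctsl, Ctsb, Ctsd and Ctsa and blue for Ctsh, and combination library 2 is near 0 for Ctsl (0.03), Ctsb (-0.0056) and Ctsd (0.02).

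The interaction term asked if the effects of the 2 agents added up on the log2 scale. None of the 10 genes was called by edgeR or by DESeq2, beside 0.0707% of all genes in edgeR. Ctsh had the smallest unadjusted p of the 10, 0.0082, and the only 1 under 0.05 (edgeR adjusted p = 0.29). Its interaction was 0.19 with an interval of 0.05 to 0.32. The Ctsh changes against control were -0.21 with oxLDL, -0.18 with tirzepatide and -0.21 with both. They share the same control libraries, and a departure from adding up was not called. For Ctsa it was -0.11 (edgeR adjusted p = 0.50) and for Ctsl -0.12 (edgeR adjusted p = 0.63).

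Over the 16 libraries, Ctsb and Ctsd varied most closely together among the pairs of the 10 genes, with a Pearson r of 0.955 on log2 CPM, and 0.648 after the group means were taken out. For Ctsb and Ctsl r was 0.800 and, within groups, 0.831. Ctsl and Ctsh had -0.783, and -0.593 within groups. These values are descriptions of libraries that share their groups, and combination library 2 is part of the within-group values.

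The genes of the whole table with the pattern most like each called member were also looked up by Pearson r of log2 CPM over the 16 libraries, as a description. For Ctsl they were Tnfrsf26 (0.96), Arl14ep (0.96) and Srxn1 (0.96), the last encoding sulfiredoxin, an antioxidant enzyme. For Ctsb they were Ctsd (0.95), Gla (0.95), which encodes lysosomal alpha-galactosidase A, and Mpeg1 (0.94), which encodes a pore-forming protein of macrophages. For Ctsd they were Mpeg1 (0.97), Ctsb (0.95) and Gnpda1 (0.94), and for Ctsa Dazap2 (0.83), Creg1 (0.82) and Hdhd2 (0.82). Gla rose from 18.8 ± 1.31 to 30.3 ± 1.79 TPM with oxLDL and Mpeg1 from 38.7 ± 1.60 to 50.0 ± 2.59 TPM, relatively more than the cathepsins themselves.

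For Ctsh the most like genes were Eef1g (0.90), a translation elongation factor subunit gene, and the ribosomal protein genes Rpl6 (0.89) and Rpl7a (0.89). The 84 ribosomal protein genes took 14.3% ± 0.537 of TPM in control, 13.5% ± 0.200 with oxLDL, 13.3% ± 0.336 with tirzepatide and 12.9% ± 0.509 with both. The mean share was below control in each treated group, as mean Ctsh TPM was. The order of the treated groups differed: the share was lowest with both agents, and Ctsh with oxLDL (218 TPM, against 222 with both). The part of the ribosomal share in the Ctsh result was not tested.

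Of 111 tested genes of the lysosome pathway other than those described here, 14 rose with oxLDL and 0 fell, 12.6% beside 4.54% of all genes. In all 89 changes were positive and 22 negative, with a median log2 change of 0.08. Among 12 genes of cathepsin sorting and activation, 2 rose with oxLDL. Igf2r, the cation-independent mannose 6-phosphate receptor gene, went from 41.8 ± 4.22 to 50.0 ± 3.55 TPM, a change of 0.25 (SE 0.05, edgeR adjusted p = 0.0037). Grn, which encodes the progranulin that stabilises cathepsin D, went from 874 ± 60.5 to 984 ± 40.0 TPM, a change of 0.17 (SE 0.04, edgeR adjusted p = 0.015). Gnptg, which encodes a subunit of the enzyme that makes the mannose 6-phosphate tag, had 0.23 (edgeR adjusted p = 0.23). M6pr, the smaller receptor gene, and Lgmn, which encodes the legumain that activates cathepsins, did not pass (0.08 and 0.04, edgeR adjusted p = 0.26 and 0.70).

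With tirzepatide alone, 2 of the 111 lysosome genes rose and 3 fell, 4.5% beside 4.08% of all genes. With both agents 13 rose and 3 fell against control, 14.4% beside 8.94%. With tirzepatide added to oxLDL none was called by edgeR and 18 had an unadjusted p under 0.05. Of the 12 sorting and activation genes, 1 was called with both agents against control, 8.33% beside 8.94% of all genes. It was Glb1, which encodes the beta-galactosidase that Ctsa protects, and it was lower. Its level was 67.7 ± 3.49 against 74.4 ± 5.70 TPM (-0.15, SE 0.05, edgeR adjusted p = 0.044).

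No gene of lysosomal transcription control was called by edgeR in any comparison, of 8 tested, and at most 4 had an unadjusted p under 0.05, with tirzepatide alone. Tfeb, which encodes a factor known to bind E-boxes of this kind, had 4.95 ± 0.594 TPM in control and 4.5 ± 0.160 TPM with oxLDL (-0.16, SE 0.15, edgeR adjusted p = 0.63). Mcoln1, a lysosomal calcium channel gene, had 39.6 ± 4.45 and 46.2 ± 2.13 TPM (0.21, SE 0.08, edgeR adjusted p = 0.15), and was the 1 gene of the list with an unadjusted p under 0.05 for oxLDL. Levels of RNA do not show where the factors were in the cell.

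The inhibitor genes outside the 10 passed in no comparison either, and Cstb alone had an unadjusted p under 0.05 for oxLDL. Cstb had 309 ± 12.5 TPM in control and 340.5 ± 17.1 TPM with oxLDL (0.13, SE 0.06, edgeR adjusted p = 0.26). Cst7 had 17.1 ± 1.26 and 15.8 ± 2.45 TPM (-0.12, SE 0.13, edgeR adjusted p = 0.69). Ctsf and Ctso, the 2 other cathepsins tested, had log2 changes of 0.09 and 0.03 with oxLDL and were called in no comparison.

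Genes that work beside cathepsin S in class II presentation did not pass with oxLDL: edgeR called 0 of 6 tested, with 0 at an unadjusted p under 0.05. With both agents against tirzepatide alone, 1 of the 6 was called, higher, beside 1.54% of all genes. This was H2-Eb1, a class II chain gene of low level, at 1.17 ± 0.247 against 0.250 ± 0.191 TPM (log2 change 1.96, SE 0.50, edgeR adjusted p = 0.044). In control H2-Eb1 had 1.00 ± 0.274 TPM, and the combination was not called against control (0.24, edgeR adjusted p = 0.77). Cd74, the invariant chain gene, had 1086 ± 79.3 TPM in control and 1064 ± 7.26 TPM with oxLDL. In the osteoclast list, the setting in which Ctsk is best known, 3 of 8 tested genes fell with oxLDL, beside 2.05% of all genes. They were Car2 (-0.41), Mmp9 (-0.52) and Tnfrsf11a (-0.22), and Ctsk itself was near 1 TPM in all groups. Of that list's 11 genes 5 reached a mean of 1 TPM in control, and Calcr, a defining marker, was listed at 0 in all libraries. Of 8 macrophage markers, Lyz2 (0.34), Csf1r (0.18) and Itgam (0.21) rose with oxLDL, beside 2.49% of all genes, and the other 5 did not pass, with Spi1 at -0.15 and Fcgr1 at -0.12. The summed level of the 8 was 16991 to 18261 TPM in control and 21640 to 22950 TPM with oxLDL, most of it Lyz2, and the part of these markers in the cathepsin results was not tested.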

How the data were processed

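RNA-seq of 16 libraries was deposited as 1 table. It holds expected counts per gene, which the authors estimated with RSEM and left unscaled, and TPM per gene, as deposited by the authors. Tools listed in the submitters' processing notes are RSEM, Bowtie2 2.2.8, fastp 0.18.0 and StringTie 1.3.1, with the builds GRCm39 and mm39. The annotation release and any use of strand are not given in the sources used here, so reads of overlapping genes cannot be told apart. The mRNA was enriched on capture beads, per the labels' protocols. No molecular identifier is named in the labels, so count intervals cover counting error only.

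After rounding, the expected counts went into edgeR 4.0.16 (R 4.3.3). Genes were kept by filterByExpr at a minimum count of 10, which left 11319, and scaled by TMM. Contrasts came from quasi-likelihood tests in 1 fit of 4 group means. Benjamini-Hochberg adjustment ran over all tested genes, and the call threshold was 0.05. Intervals are 95%. The biological coefficient of variation was 0.0633. The fit was also run on counts simulated with its own estimates of spread, which cannot check those estimates. The outcome of that run is not given here. The members and lists were chosen with earlier results of these data known. All 10 members are named, up to 3 genes of each other list, and the 3 genes most like each member called with oxLDL. Lgmn, M6pr, Tfeb, Cd74, Calcr, Spi1 and Fcgr1 are named for their roles, outside this rule and after their values were seen. Alternatives used DESeq2 1.42.0 and limma 3.58.1, other filters and scalings, a replicate block, and libraries left out. RefSeq windows and GENCODE annotation on GRCm38 served only for the motif search, made with Python 3.11.15.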

Additional observations from a re-analysis of the deposited data

How the results depend on the processing

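Over the log2 changes of the 10 genes in 6 comparisons, 1358 of 1418 alternative values kept direction and side of the threshold, 16 lost a call, 10 gained one and 34 changed sign, all of the last in changes that were not called. Without controls 1 and 2 together, oxLDL against control called 3 of the 10 genes in place of 5 and tirzepatide against control 0 in place of 1; leaving out single libraries gave 0 to 1 for the latter. For the combination against oxLDL, DESeq2 called 1 in place of 0. For the combination against tirzepatide, DESeq2 called 2 and leaving out single libraries gave 0 to 3.

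Sign changes with quantile normalization were Cst3 at -0.0121, Ctsc at 0.16 and Ctsd at 0.0073 with tirzepatide, and Ctsh at -0.0126 for the combination against oxLDL. Without controls 1 and 2 together, Cst3 (-0.00661), Ctsa (-0.0031), Ctsc (0.32), Ctss (0.0131) and Ctsz (-0.0026) changed sign with tirzepatide and Ctsc (0.17) with oxLDL. Leaving out single libraries, changes that crossed 0 ranged as follows. Cst3 went from -0.0647 to 0.0156 in the interaction, -0.0036 to 0.0762 for the combination against control, -0.0533 to 0.0265 against oxLDL, -0.0145 to 0.0653 against tirzepatide, and -0.0125 to 0.0460 for tirzepatide against control. With tirzepatide Ctsc went from -0.15 to 0.11 and Ctss from -0.0614 to 0.0140, and with oxLDL Ctss went from -0.0119 to 0.0634 and Ctsk from -0.36 to 0.24. For the combination against oxLDL, Ctsh went from -0.0365 to 0.0321, Ctsk from -0.65 to 0.0954 and Ctsl from -0.0691 to 0.0403, and Ctsh against tirzepatide from -0.0672 to 0.0014. The interaction of Ctsk went from -0.0449 to 0.70. The causes were not tested.

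Over all tested genes, replicate numbers paired the libraries weakly at most. Over 24 same-numbered pairs the deviations correlated at -0.13 to 0.19 (median 0.02, 5 pairs over 0.1). Of 16 libraries, 6 correlated best with their own number. The mitochondrial share of TPM was, however, highest in library 1 of every group: 20.5% in control, 17.4% with oxLDL, 16.6% with tirzepatide and 19.8% with both. The block also raised the count of all genes called, from 514 to 734 for oxLDL and from 462 to 750 for tirzepatide. What the numbers mark was not tested. With the number as a replicate block, the members called were 5, 1, 2 and 0 as before, and 1 (Ctsd, edgeR adjusted p = 0.048) in place of 0 for the combination against tirzepatide, and Ctsc with tirzepatide was 0.0031.

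Counts over all genes moved by more than 1.5 times in places. For oxLDL, 514 became 307 without control 2 or without controls 1 and 2, and 324 without oxLDL 1. For tirzepatide, 462 became 750 with the block, 264 with only the groups compared, 119 to 293 without control 2 or 3 or tirzepatide 1, 2 or 3, and 204 without controls 1 and 2. For the combination against oxLDL, 4 became 17 with the block, 7 with only the groups compared, 33 with DESeq2, 32 with no filter, 8 without control 1 or controls 1 and 2, 7 without combination 1 and 2 without oxLDL 2, 3 or 4. For the combination against control, 1012 became 410 with only the groups compared and 475 to 627 without control 2 or 3 or combination 1 or 4. Against tirzepatide, 174 became 378 with the block, 107 with only the groups compared, 319 with DESeq2, 282 with no filter, 444 without combination 2 and 58 to 102 without tirzepatide 2, 3 or 4 or combination 1, 3 or 4, and the interaction's 8 became 29 with the block, 57 with DESeq2, 39 with no filter, 5 without controls 1 and 2 and 1 to 16 without single libraries. Depth limits Ctsc and Ctsk, whose 5 to 31 counts a library allow no statement on small changes.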
